A study of Mus musculus with 8 samples.

Results

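The NZO/HlLtJ mice, an inbred strain that becomes obese, were compared with 7 other inbred strains in nuclei of the striatum. The members were chosen by the deposited cell table: every annotated nucleus whose RNA genotype was assigned to NZO/HlLtJ. They were 6922 of 55672 annotated nuclei (12.4%), from 4 mice, with 1726, 1583, 2129 and 1484 nuclei in batches 1 to 4. The other 28 mice gave 48750 nuclei. The comparison used the 5 clusters named by the rule. In these the NZO/HlLtJ mice (NZO from here on) gave 1909 Drd1+ neurons, 1622 Drd2+ neurons, 1271 oligodendrocytes, 628 astrocytes and 269 macrophages. The reference in every comparison was the mean of the other strains: 129S1/SvImJ, A/J, C57BL/6NJ, CAST/EiJ, NOD/ShiLtJ, PWK/PhJ and WSB/EiJ, each with 4 mice. The deposited table has NZO_HlLtJ and C57BL/6NJ where the design text has NZO/H1LtJ and C57BL/6J.

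All 32 mice were 12 weeks old, and the labels name no added allele or treatment in any group. Frozen striata were pooled in 4 batches, each with 1 mouse of each strain, and RNA and open chromatin were read from the same nuclei. A strain here is 1 inbred genome, so the 4 NZO mice are replicates of that genome and the comparison holds for every allele and body trait of the strain at once. Body weight, blood glucose and the hour of dissection are not given in the sources used here. The design text gives both sexes in every batch. Of the 4 NZO mice, those of batches 3 and 4 had Y-linked transcripts and those of batches 1 and 2 did not, while all 4 NOD/ShiLtJ mice had them; sex is therefore partly confounded with strain.

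The striatum is the input station of the basal ganglia. Its projection neurons form a direct pathway, marked by the dopamine receptor Drd1, which promotes movement and reward seeking, and an indirect pathway, marked by Drd2, which restrains them. Dopamine raises cyclic AMP in the Drd1 class and lowers it in the Drd2 class, and endocannabinoids made by the projection neurons damp transmitter release through the cannabinoid receptor Cnr1. NZO mice are a polygenic model of obesity with insulin resistance, and strain crosses have mapped diabetes and body fat loci in them. Leptin and insulin act on many brain regions, and the striatum is studied in obesity for its part in food reward.

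Counts of 1 mouse in 1 cluster were summed to 1 library, and levels are given in counts per 1000000 (CPM) after TMM scaling. A gene was called where the adjusted p was under 0.05, and a called gene is described as lost where an alternative way of processing gave an adjusted p of 0.05 or above. One alternative took the 4 classical laboratory strains (129S1/SvImJ, A/J, C57BL/6NJ and NOD/ShiLtJ) as reference. Fold changes are log2 differences between NZO and the unweighted mean of the 7 other strains with the batch as a term (± SE). The SE was worked back from the F test, as the absolute fold change divided by the square root of F. The NZO libraries held 2306591 to 3878216 counts in Drd1+ neurons and 60519 to 114381 in macrophages, which leaves less precision in the glia than in the neurons. All 160 libraries passed the minimum of 10 nuclei. Of the genes described here, 10 would not have passed the filter on low counts without the NZO libraries, which selects for a difference: Trim25 and Hcrtr2 in Drd2+ neurons, Poteg and Colgalt2 in oligodendrocytes, Klri1 and Pygl in astrocytes, and Kcnc2, Slfn9, Zfp949 and Ccl6 in macrophages. Their values in these clusters are descriptions, and their p-values no support. In all, 1517 barcode sequences occurred in more than 1 batch, 361 NZO nuclei among them; the batches were captured separately. Strain assignments from RNA and from open chromatin agreed for all 55672 annotated nuclei. These had already passed the authors' filters, and the assignments were not compared among the barcodes left out. The cluster names fitted their markers in the NZO libraries: 6 Drd1+ projection neuron markers summed to 848 to 1189 CPM in the NZO mice and 778 to 1504 CPM (median 1040.3) in the others within the Drd1+ cluster, against 74.7 to 88.5 CPM in the NZO libraries of the Drd2+ cluster. RNA of other cell types was present in every cluster. Oligodendrocyte markers in Drd1+ neurons, for example, summed to 1044 to 1296 CPM in the NZO mice and 944 to 1419.98 CPM (median 1242) in the others. Median counts per nucleus, nuclei per mouse and mitochondrial share did not pass the test between NZO and the other strains (all adjusted p = 0.961, two-sided exact permutation within batches).

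In Drd1+ neurons, 2650 of 13431 genes tested differed in NZO (19.7%), 1476 higher (11%) and 1174 lower (8.74%). Against the 4 classical strains alone, 1082 were higher and 1086 lower. By at least 1 on the log2 scale, 233 genes were higher (1.73%) and 166 lower (1.24%). All 4 NZO libraries lay outside the range of the 28 others for 49 of the higher genes (0.365%) and 36 of the lower (0.268%). The genes named for a large fold change within 1 cluster, here and below, were taken only from genes that stood apart in this way. Their lack of overlap was thus set by the choice. Among the genes that stood apart, the orexin receptor Hcrtr2 was higher in NZO, and the glutamate receptor Grm8 and the chloride channel Ano2 were lower. Hcrtr2 (chr9:76225880-76323623), which responds to the feeding and wakefulness peptide orexin, had 18.8, 16.9, 17.7 and 11.97 CPM in the NZO mice of batches 1 to 4 against 0 to 11.4 (median 3.36) in the others (log2 fold change 2.10 ± 0.31, adjusted p = 2.7e-05). The lowest NZO mouse was above the highest of the others. Grm8 (chr6:27275121-28135146), a presynaptic metabotropic glutamate receptor, had 108, 137, 100.1 and 137 CPM in NZO and 162 to 585 (median 321) in the others (-1.41 ± 0.21, adjusted p = 3.8e-05). Again no NZO mouse reached the range of the other strains. Ano2, which lets chloride pass when calcium rises, had 48.1, 38.2, 25.1 and 38.8 CPM in NZO against 65.4 to 163 (median 124) elsewhere (-1.67 ± 0.18, adjusted p = 3.2e-07).

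Another of the higher genes was Nudcd1 (chr15:44375227-44428307), which encodes a NudC-domain protein. It had 117, 130.1, 122 and 118.9 CPM in NZO, and no other mouse exceeded 45.8 CPM (lowest 21.0, median 30.8; 1.95 ± 0.07, adjusted p = 9.3e-25). Every one of the other 7 strains lay below it: the next, PWK/PhJ, averaged 36.7 CPM. For other genes 1 further strain came near. Cdhr1 (chr14:37077849-37098347), a cadherin-related protein best known from photoreceptors, had 28.3, 28.9, 27.1 and 34.3 CPM in NZO against 0 to 26.5 with a median of 2.72 (2.91 ± 0.14, adjusted p = 9.3e-21), but the 129S1/SvImJ mice averaged 21.6 CPM. Car10 (chr11:93096805-93601751), a catalytically inactive carbonic anhydrase homologue that binds neurexins, had 72.1, 80.4, 63.9 and 77.2 CPM against 5.11 to 54.7 with a median of 14.6 (2.22 ± 0.13, adjusted p = 7.6e-14), with CAST/EiJ next at a mean of 44.3. Elovl2, an enzyme that lengthens polyunsaturated fatty acids, had 28.8, 25.8, 26.8 and 26.8 CPM in NZO and 1.62 to 16.3 (median 8.40) in the others (1.72 ± 0.16, adjusted p = 2.7e-10). The groups did not overlap for any of these 4 genes. Of the remaining genes on the higher side chosen by the naming rule, Tmem196, Tcerg1l, Farp1, Gm36560 and 9630001P10Rik had log2 fold changes of 2.28, 2.05, 1.98, 1.85 and 1.71.

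On the lower side, E430024P14Rik, a transcript of unknown function, and its neighbour Fndc1 stood out. E430024P14Rik (chr17:7855073-8108015, listed in RefSeq as a synonym of Gm1604a) had 2.06, 0.444, 1.71 and 0.826 CPM in NZO against 15.8 to 63.0 (median 32.2) in the others (-4.61 ± 0.21, adjusted p = 5.4e-22). Fndc1 (chr17:7738569-7827340), a fibronectin type III domain protein, had 7.72, 8.00, 9.70 and 8.26 CPM against 21.9 to 91.02 with a median of 42.1 (-2.38 ± 0.14, adjusted p = 1.9e-18). The genes lie 27733 bases apart, and neither group of mice overlapped the other for either gene. Fam57a (chr11:76179671-76209417, Tlcd3a in RefSeq), a TLC-domain membrane protein, had 1.29, 2.22, 3.42 and 2.48 CPM in NZO and 19.4 to 40.6 (median 31.3) elsewhere (-3.73 ± 0.18, adjusted p = 5.5e-21). Here the lowest of the 28 other mice was far above the highest NZO mouse. The long noncoding RNA Snhg11 had 658, 664, 675 and 826 CPM against 1084 to 2685 with a median of 1901 (-1.39 ± 0.06, adjusted p = 3.6e-22), and again the groups did not meet. The other genes named on this side were Abhd14a (-1.91), the mitochondrial NAD synthase Nmnat3 (-1.77), Gm26724 (-1.64), Gm47283 (-1.55) and the transcription elongation factor Aff1 (-1.42).

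**Figure D1:**
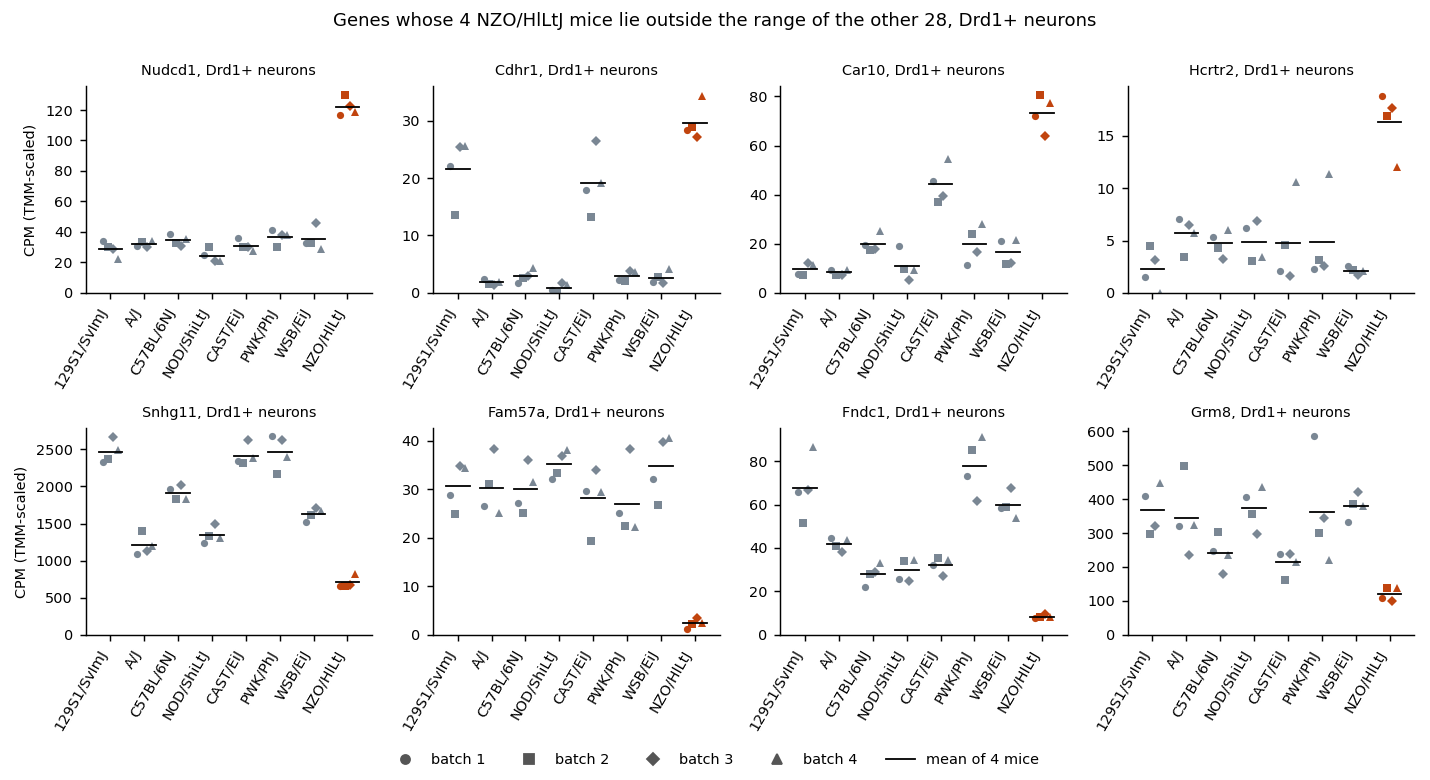
Levels of 8 genes in Drd1+ neurons by strain, in CPM on linear axes that start at 0. Each point is 1 mouse (the marker gives the batch, 4 mice per strain) and each line the mean of 4; the 4 NZO/HlLtJ points lie above all others for Nudcd1, Cdhr1, Car10 and Hcrtr2 and below all others for Snhg11, Fam57a, Fndc1 and Grm8, and the 129S1/SvImJ points are also high for Cdhr1.

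The size of the difference depended on the strain set beside NZO. Against single strains in Drd1+ neurons, 1760 genes were called against 129S1/SvImJ (13.1%), 1934 against A/J (14.4%), 1851 against C57BL/6NJ (13.8%), 2094 against NOD/ShiLtJ (15.6%) and 2175 against WSB/EiJ (16.2%). Against CAST/EiJ and PWK/PhJ the counts were 4009 (29.8%) and 4247 (31.6%). These contrasts share the NZO mice. Called genes were spread over the genome, from 15.8% of the tested genes of chromosome 19 to 23.02% of those of chromosome 5. Without batch 1 the count for the mean of all 7 strains was 1751, and the count against 129S1/SvImJ, 1069; without batch 2 the counts against 129S1/SvImJ, A/J, C57BL/6NJ and NOD/ShiLtJ were 1102, 1220, 1145 and 1302, and without batches 1 and 3 in turn that against C57BL/6NJ was 1146 and 1213.

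In Drd2+ neurons, 2364 of 12799 genes differed (18.5%), 1376 higher (10.8%) and 988 lower (7.72%); 47 of the higher (0.367%) and 44 of the lower (0.344%) had all NZO libraries outside the range of the others. By at least 1 on the log2 scale, 224 were higher (1.75%) and 147 lower (1.15%). Without batch 1 the count was 1560. Against the 4 classical strains alone, 1014 were higher and 958 lower. Several genes named in Drd1+ neurons were named here as well. Both clusters come from the same mice, so they are not independent. Hcrtr2 had 10.6, 7.33, 11.9 and 15.3 CPM in NZO against 0 to 5.39 with a median of 1.93 (2.67 ± 0.27, adjusted p = 1.5e-10). Nudcd1 (1.92), Elovl2 (1.84), E430024P14Rik (-4.74), Fndc1 (-3.63), Fam57a (-3.22) and Gm26724 (-2.22) moved in the direction seen in Drd1+ neurons, with no overlap between the groups. Trim25 (chr11:88999403-89020294), a ubiquitin ligase of antiviral sensing, had 9.95, 9.59, 12.2 and 8.41 CPM in NZO against 0 to 4.84 with a median of 1.42 (3.01 ± 0.26, adjusted p = 1.2e-12). Trpc5 (chrX:144377327-144688180), a calcium-permeable channel, had 25.4, 11.3, 14.7 and 11.9 CPM against 0 to 10.7 with a median of 2.90 (2.31 ± 0.23, adjusted p = 2.1e-10), and its neighbour Rtl4 (chrX:144688209-145122414), derived from a retrotransposon, had 65.2, 47.9, 49.6 and 39.6 CPM against 2.29 to 21.0 with a median of 8.70 (2.52 ± 0.15, adjusted p = 1.2e-14). Only 29 bases separate the Trpc5 and Rtl4 genes, and the counting strand is not stated, so reads of one could be counted for the other. The transcription factor Onecut2 had 15.1, 15.2, 19.8 and 9.40 CPM in NZO against 26.5 to 75.9 with a median of 53.8 (-1.75 ± 0.15, adjusted p = 5e-11), all 4 mice below the range of the rest. The transcript F730043M19Rik (-1.96) was the other named gene on the lower side.

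The NZO difference was then compared between the neuron classes within the same mice. It differed between Drd2+ and Drd1+ neurons for 97 of 13791 genes (0.703%), more positive in Drd2+ neurons for 60 (0.435%) and more negative for 37 (0.268%). At an unadjusted p under 0.05 there were 1090 genes (7.9%). Rtl4 had the largest F. In Drd1+ neurons it had 98.04, 48.0, 72.4 and 47.5 CPM in NZO and 13.05 to 56.2 (median 28.9) in the others, a log2 fold change of 1.14, and in Drd2+ neurons 2.52; the difference between these was 1.34 ± 0.13, adjusted p = 3.1e-15. Onecut2 went further down in Drd2+ neurons: the Drd1+ libraries had 79.5, 96.4, 125 and 127 CPM against 84.2 to 199 (median 145), and the difference between the log2 fold changes (-1.75 and -0.40) was -1.33 ± 0.13, adjusted p = 1e-12. Fstl5, a secreted follistatin-like protein, was higher in both classes and more so in Drd2+ neurons (0.53 in Drd1+, 1.23 in Drd2+; difference 0.71 ± 0.08, adjusted p = 5e-07). Snhg11 fell in both, further in Drd2+ neurons with 474, 506, 532 and 570.1 CPM against 783 to 2794 with a median of 1847 (difference -0.33 ± 0.04, adjusted p = 4.1e-10). Unc13c, which primes synaptic vesicles, had fold changes of -0.09 in Drd1+ and 0.23 in Drd2+ neurons (difference 0.32 ± 0.04, adjusted p = 3.8e-09). With the batch in place of the mouse as block, 8 genes were called, and the calls for Rtl4 (adjusted p = 0.11), Snhg11 (adjusted p = 0.27) and Unc13c (adjusted p = 0.42) were lost; without batch 1, 53 genes were called.

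**Figure D2:**
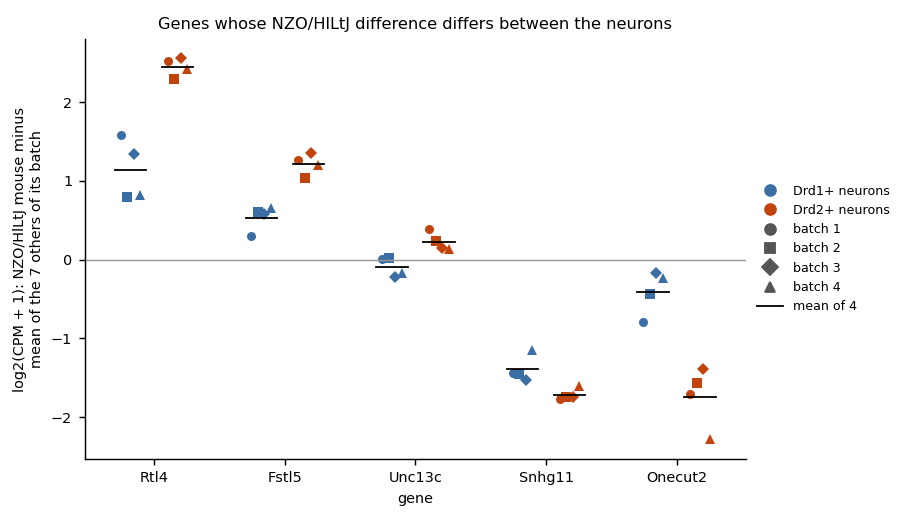
Difference between each NZO/HlLtJ mouse and the mean of the 7 other mice of its batch, as log2(CPM + 1), for the 5 genes with the largest F of the difference between neuron classes. Points are mice (marker: batch), lines means of 4, blue Drd1+ and red Drd2+ neurons; the Drd2+ points lie above the Drd1+ points for Rtl4 and below them for Onecut2.

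Of 3235 genes tested in all 5 clusters, 287 had a positive and 284 a negative log2 fold change in each. Called in all 5 were 2 on the higher side, Zfp949 and Magi1, and 3 on the lower, Fggy, Gm47283 and AC149090.1; Magi1 and AC149090.1 are named here after their values were seen. Fggy (chr4:95557480-95926939), a carbohydrate kinase, was lower, with log2 fold changes of -2.99, -2.57, -2.12, -2.04 and -2.40 in Drd1+ neurons, Drd2+ neurons, oligodendrocytes, astrocytes and macrophages. In Drd1+ neurons it had 2.32, 5.77, 3.14 and 3.72 CPM in NZO against 5.02 to 51.9 (median 31.0), with A/J next lowest at a mean of 10.4. In macrophages the call was lost without batch 1 (adjusted p = 0.051) and without batch 2 (adjusted p = 0.069). The transcript Gm47283 was lower as well, with log2 fold changes of -1.55, -1.70, -1.37, -1.60 and -1.78 in the same order. Zfp949, a zinc finger protein, was higher, with 1.09, 1.09, 1.61, 2.18 and 1.74, the last of them a value that passed the low-count filter only with the NZO libraries. Its NZO libraries of Drd1+ neurons had 112, 93.7, 155 and 122.6 CPM and the others 34.95 to 128 (median 53.7), and WSB/EiJ was the nearest strain with a mean of 116 CPM. The rule, which asked here for 1 sign in all 5 clusters and not for a call, also named B530045E10Rik, Xist and Tsix. B530045E10Rik had 0.515, 0, 1.14 and 2.06 CPM in NZO Drd1+ neurons against 0.341 to 434 (median 1.54), with CAST/EiJ at a mean of 234; it was called lower there alone and lost without batch 1, 2 or 3 or without the batch term (adjusted p from 0.092 to 0.24). The X-inactivation RNAs Xist and Tsix were high in the NZO mice of batches 1 and 2, those without Y-linked transcripts, and were called in no cluster.

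The gene lists here and below were chosen with earlier results of these data known. A list's count beside the share of all genes is thus a description, not a test. Genes of striatal signalling were examined as a list of 40, of which 38 were tested in either neuron class. In Drd1+ neurons 3 were called higher and 11 lower (median log2 fold change -0.05, against 0.008 over all genes tested), where 11% of all genes were called higher and 8.74% lower. In Drd2+ neurons 2 were higher and 10 lower (median -0.07, against 0.007), beside 10.8% and 7.72% of all genes. The called members on the lower side held receptors and second-messenger genes, while the receptor that names each class was not called in it: Drd1 was at -0.08 in Drd1+ neurons and Drd2 at -0.08 in Drd2+ neurons. Of the 6 Drd1+ class markers 1 was called higher and 1 lower in Drd1+ neurons, and of the 6 Drd2+ class markers none was called in Drd2+ neurons. Cnr1, the cannabinoid receptor, was lower in both classes. Drd1+ neurons had 139.7, 143, 127 and 215 CPM in NZO against 162 to 467 with a median of 299.6 (-0.96 ± 0.21, adjusted p = 0.0022), and Drd2+ neurons 145, 140.4, 116 and 168 CPM against 167 to 427 with a median of 288 (-1.03 ± 0.18, adjusted p = 0.00018). In Drd1+ neurons 3 of the 4 NZO mice lay below all others, and in Drd2+ neurons 3 of 4. Rgs9, which speeds the shut-off of G proteins, had 609.9, 687, 605 and 709 CPM in NZO Drd1+ neurons and 683 to 948 (median 878) in the others (-0.38 ± 0.06, adjusted p = 1.2e-06). Kcnip2, a subunit of A-type potassium channels, had 158, 143, 153 and 187 CPM against 170.05 to 408 with a median of 219 (-0.55 ± 0.06, adjusted p = 1.2e-09). The groups overlapped for both, and 2 and 3 of the 4 NZO mice were below all others. Rasgrp2, a Rap1 activator, had 63.0, 65.3, 61.3 and 68.1 CPM against 63.2 to 104 with a median of 89.7 (-0.47 ± 0.07, adjusted p = 2.2e-06), and Pde10a, which breaks down cyclic AMP and cyclic GMP, 2357, 2785, 2108 and 2768 against 2260.1 to 3784 with a median of 3005 (-0.29 ± 0.06, adjusted p = 0.00099). Below all others for Rasgrp2 and Pde10a lay 2 and 1 of the 4 NZO mice.

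In Drd2+ neurons the same genes were lower, with log2 fold changes of -0.35 for Rgs9, -0.56 for Kcnip2, -0.44 for Rasgrp2 and -0.31 for Pde10a, and so was the scaffold Strn (-0.31 in Drd1+ and -0.34 in Drd2+ neurons). No alternative in processing ended these calls. The mu opioid receptor Oprm1 went the other way. It had 75.8, 59.8, 57.5 and 55.9 CPM in NZO Drd2+ neurons against 18.2 to 67.9 with a median of 32.6 (0.93 ± 0.17, adjusted p = 0.0004) and 59.7, 62.6, 56.2 and 49.96 against 18.9 to 65.9 (median 42.4) in Drd1+ neurons (0.48 ± 0.12, adjusted p = 0.0042). The ranges overlapped in both, with 1 of the 4 NZO mice above all others in Drd2+ neurons. The remaining calls in Drd1+ neurons rested on fewer settings. Ppp1r1b (DARPP-32, -0.24) lost its call without batch 1, 2 or 3 or without the batch term (adjusted p from 0.066 to 0.2), the neuropeptide gene Tac1 (-0.22) without batch 1 or 2, without the batch term, against the 4 classical strains, without the A/J mouse of batch 2 or without NOD/ShiLtJ (adjusted p from 0.056 to 0.59), the G protein subunit Gng7 (-0.20) without batch 1 or 3 or against the 4 classical strains (adjusted p from 0.083 to 0.17) and the muscarinic receptor Chrm4 (-1.20) without batch 1 or 3 (adjusted p from 0.12 to 0.23). In Drd2+ neurons Ppp1r1b (-0.27 ± 0.06, adjusted p = 0.0015) and Gng7 (-0.26 ± 0.06, adjusted p = 0.0013) were lower too, and no alternative run ended these calls. The transcription factors Isl1 (0.43) and Rxrg (0.30), on the higher side, lost theirs without batch 3 or against the 4 classical strains (adjusted p from 0.053 to 0.12) and without batch 2 or 4 or against the 4 classical strains (adjusted p from 0.066 to 0.21). Over the alternatives the number of list members called lower in Drd1+ neurons ran from 7 to 17, and in Drd2+ neurons from 10 to 13. Markers of other cells were called as well, where 11% of all genes in Drd1+ and 10.8% in Drd2+ neurons were higher and 8.74% and 7.72% lower. Of the oligodendrocyte precursor markers 1 of 3 was higher in Drd1+ and 2 of 3 in Drd2+ neurons, of the mural markers 1 of 2 was higher in Drd1+ neurons, and of the GABA interneuron markers 1 of 5 was higher in Drd2+ neurons. Of the Drd1+ projection neuron markers, 1 of 5 tested in Drd2+ neurons was higher there, Eya1 (1.15). The 1 border macrophage marker tested was lower in both classes. Of the neuroblast markers 2 of 3, Dcx and Sox11, were called higher in both classes, and the list summed in Drd1+ neurons to 64.0 to 70.6 CPM in the NZO mice and 38.4 to 76.4 CPM (median 51.9) in the others. Their part in the other results was not tested.

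**Figure D3:**
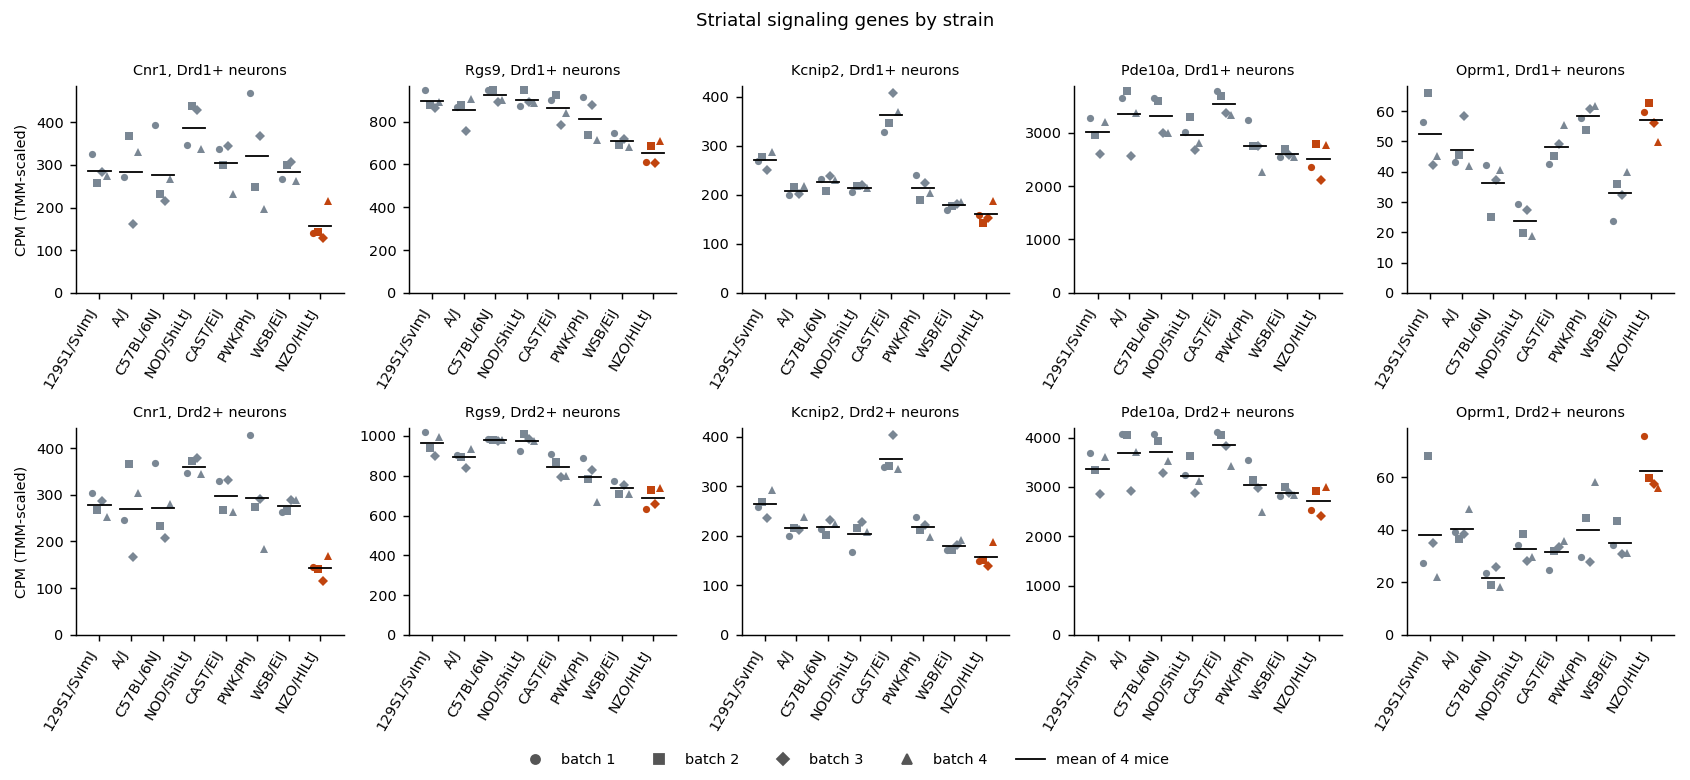
Levels of 5 striatal signalling genes by strain in Drd1+ neurons (upper row) and Drd2+ neurons (lower row), in CPM on linear axes from 0. Points are mice with batch markers, 4 per strain, and lines are means; NZO/HlLtJ is low for Cnr1, Rgs9, Kcnip2 and Pde10a and high for Oprm1 in both rows, with overlap between single mice.

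The endocannabinoid list holds 9 genes, all tested in Drd1+ neurons, and 4 were lower and none higher (median -0.08), beside 8.74% and 11% of all genes. Over the alternatives 2 to 4 were called lower. Beside Cnr1 these were Mgll, which degrades 2-arachidonoylglycerol (-0.34 ± 0.08, adjusted p = 0.0022), Daglb, which makes it (-0.27), and the receptor-interacting protein Cnrip1 (-0.34). The calls for Daglb and Cnrip1 were lost without batch 2, 3 or 4, without the low-count filter, without the batch term, against the 4 classical strains or with DESeq2 (adjusted p from 0.071 to 0.76) and without batch 2 or 3 or without the batch term (adjusted p from 0.13 to 0.16). In Drd2+ neurons Mgll (-0.36) joined Cnr1, and its call was lost without batch 2 or 3, without the batch term or against the 4 classical strains (adjusted p from 0.054 to 0.15). In macrophages the hydrolase Abhd12, which clears lysophosphatidylserine, was higher, with 867, 821, 842 and 829.5 CPM in NZO against 288 to 889.5 with a median of 511 (0.77 ± 0.13, adjusted p = 4.7e-06). The NZO mice lay within the upper part of the others' range. Immediate early genes, which neurons switch on when active, were mostly not called: of 18 tested in Drd1+ neurons Egr3 alone was called (-0.68, adjusted p = 0.026), beside 19.7% of all genes called. The median was -0.23, and 0 to 6 were called lower over the alternatives. Egr3 was lost without batch 2 or 3, against the 4 classical strains or without NOD/ShiLtJ (adjusted p from 0.054 to 0.17). In Drd2+ neurons 1 of 18 tested was called, Jund (0.54), beside 18.5% of all genes, and it was lost without batch 1 (adjusted p = 0.085).

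Genes of leptin, insulin and energy balance gave no single direction. Of the 50 listed, 43 were tested in Drd1+ neurons, 7 higher and 3 lower (median 0.02). That is 23.3% of those tested, against 19.7% of all genes. In Drd2+ neurons 3 of 42 were higher and 1 lower (median 0.05), or 9.52% against 18.5%. Over the alternatives 4 to 8 were higher and 2 to 5 lower in Drd1+ neurons. Tbc1d1 (chr5:64156305-64351486), a Rab regulator of glucose transporter traffic and one of the genes mapped in NZO crosses, had 8.49, 12.9, 5.42 and 6.19 CPM in NZO Drd1+ neurons against 1.19 to 6.71 with a median of 3.41 (1.09 ± 0.21, adjusted p = 0.00012), with 2 of 4 above all others. In Drd2+ neurons it had 8.02, 9.59, 5.39 and 5.44 CPM against 0.916 to 15.7 (median 3.70) and was not called (0.60, adjusted p = 0.11). The receptor Igf1r had 202, 201, 169 and 198 CPM against 119.0 to 204 (median 158) in Drd1+ neurons (0.28 ± 0.05, adjusted p = 6.2e-05), all within the range of the others. The signal transducer Stat5b (0.29 and 0.43 in Drd1+ and Drd2+ neurons) was also higher, and the transcription factor Foxo3 was lower (-0.36 and -0.48), as was the phosphatase Ptpn2 in Drd1+ neurons (-0.35). Levels of the leptin receptor were close to the counting limit. Lepr had 2.06, 0.888, 1.14 and 1.65 CPM in NZO Drd1+ neurons against 0.324 to 10.03 with a median of 3.42 (-1.09 ± 0.40, adjusted p = 0.046), and the call was lost without batch 1, 2, 3 or 4, without the batch term or without NOD/ShiLtJ (adjusted p from 0.054 to 0.16). The insulin receptor Insr (0.19) lost its call without batch 1, 2 or 4, without the low-count filter, without the batch term, against the 4 classical strains or with DESeq2 (adjusted p from 0.059 to 0.3). The others called in Drd1+ neurons were Foxo6 (0.84, lost without batch 1 or against the 4 classical strains, adjusted p from 0.098 to 0.48), the glucose transporter Slc2a3 (0.21, lost without batch 3 or against the 4 classical strains, adjusted p from 0.1 to 0.2) and the AMP-kinase subunit Prkaa1 (0.39, lost without batch 1 or 2, adjusted p from 0.074 to 0.16). Of 10 genes that strain crosses have tied to obesity or diabetes, 5 were tested in Drd1+ neurons: Tbc1d1 and Lepr were called, while Abcg1 (0.08), Sorcs1 (0.04) and Nnt (-0.29) were not. Zfp69 was tested in macrophages alone, with 78.8, 82.1, 118 and 124 CPM in NZO and 0 to 243 (median 92.0) in the others (0.24, adjusted p = 0.81).

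Outside the neurons, Adipor2 and Tbc1d4 differed by more than 1 on the log2 scale. The adiponectin receptor Adipor2 was lower in oligodendrocytes, with 331, 261, 287 and 328 CPM in NZO against 369 to 1413 with a median of 709 (-1.26 ± 0.19, adjusted p = 7.6e-05); all 4 NZO mice were below all others. Tbc1d4, the Rab regulator that insulin acts on, was higher in macrophages with 223, 148, 226 and 263 CPM against 0 to 255 with a median of 61.6 (1.86 ± 0.29, adjusted p = 5.1e-07), with 1 of 4 above the others. In oligodendrocytes the list had 3 higher and 1 lower of 34, in astrocytes 1 higher of 29 and in macrophages 1 higher and 1 lower of 21. The called shares were 11.8%, 3.45% and 9.52%, beside 8.19%, 4.8% and 5.05% of all genes. The other calls were less steady: Slc2a3 in oligodendrocytes (0.89) was lost without batch 1 (adjusted p = 0.083), Prkaa2 (0.65) without batch 2 or 4 or against the 4 classical strains (adjusted p from 0.061 to 0.64), Irs2 (0.51) without batch 1 or against the 4 classical strains (adjusted p from 0.11 to 0.3) and Slc2a3 in astrocytes (1.08) without batch 1, 2 or 3, without the batch term, with at least 30 nuclei per library, without the A/J mouse of batch 2, without NOD/ShiLtJ or with DESeq2 (adjusted p from 0.053 to 0.36).

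Cells make cholesterol through the enzymes that SREBP factors switch on when sterols run low, and astrocytes supply much of the cholesterol that neurons use. Several enzymes of this pathway were lower in NZO neurons and astrocytes and were not called lower in oligodendrocytes. Of 43 genes of cholesterol and lipid metabolism, 38 were tested in Drd1+ neurons, 10 lower and 1 higher (median -0.17), where 8.74% of all genes were lower. In Drd2+ neurons 5 of 37 were lower and none higher (median -0.18), beside 7.72% of all genes lower. In astrocytes 7 of 33 were lower and 1 higher (median -0.24, against 0.016 over all genes), beside 1.83% lower. In oligodendrocytes 2 of 36 were higher and none lower (median 0.10), beside 5.01% and 3.18%, and in macrophages Apoe alone of 7 tested was called, on the higher side, beside 3.68% of all genes higher and 1.37% lower. Whether the cell types differ in this was not tested. Insig1, which holds SREBP in the endoplasmic reticulum and is itself a sterol target, had 35.02, 30.8, 39.2 and 42.4 CPM in NZO astrocytes against 41.2 to 177 with a median of 82.6 (-1.21 ± 0.22, adjusted p = 6.9e-05), with 3 of 4 below all others. Fdft1, squalene synthase, had 13.1, 12.4, 17.7 and 15.3 CPM in NZO Drd1+ neurons against 16.6 to 38.6 with a median of 24.2 (-0.73 ± 0.15, adjusted p = 0.00024), with 3 of 4 below all others. The sterol oxidase Msmo1 (-0.53), the lipoprotein lipase Lpl (-0.47) and the fatty acid enzyme Acaca (-0.24) were lower there too.

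In Drd2+ neurons Lpl (-0.58) kept its call under every alternative, Fdft1 (-0.69) was lost against the 4 classical strains (adjusted p = 0.051), Msmo1 (-0.50) without batch 1 (adjusted p = 0.15) and Acaca (-0.25) without batch 1 (adjusted p = 0.15). Among the other Drd1+ calls on the lower side, Srebf1 (-0.63) was lost without batch 1 or 3, without the low-count filter, against the 4 classical strains or with DESeq2 (adjusted p from 0.058 to 0.23), Sc5d (-0.46) without batch 2, 3 or 4 or against the 4 classical strains (adjusted p from 0.053 to 0.1) and Acsl3 (-0.28) without batch 4 (adjusted p = 0.052). The 1 member called higher, Nsdhl (0.72), was lost without batch 3 or against the 4 classical strains (adjusted p from 0.066 to 0.1). In astrocytes Msmo1 (-0.72), Sc5d (-0.83), Cyp51 (-0.64) and the fatty acid elongase Elovl6 (-0.76) were lower and the cholesterol exporter Abca1 higher (0.46). These were lost, in that order, without batch 1 or 3 (adjusted p from 0.074 to 0.22), without batch 1, 3 or 4 (adjusted p from 0.055 to 0.27), without batch 1, 2 or 3, without the batch term, against the 4 classical strains, without the A/J mouse of batch 2, without NOD/ShiLtJ or with DESeq2 (adjusted p from 0.0501 to 0.33), without batch 2 (adjusted p = 0.077) and without batch 1 (adjusted p = 0.08). In oligodendrocytes Msmo1 had 96.8, 112, 242 and 133 CPM in NZO against 51.2 to 153 (median 90.7), on the higher side (0.60 ± 0.11, adjusted p = 5.2e-05), and was lost without batch 3 (adjusted p = 0.061). Over the alternatives the members called lower numbered 7 to 10 in Drd1+ neurons and 3 to 8 in astrocytes.

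The circadian clock is a loop in which CLOCK and BMAL1 (Arntl) drive their own repressors, the Per and Cry genes, and output factors such as Dbp, Tef and Hlf, by binding E-boxes, here the letters CACGTG, which read the same on both strands. In RefSeq promoters (GRCm38.p6, 250 bases before to 50 after a gene's start) this motif was found in 2187 of 27025 genes (8.09%) and in 5 of the 17 clock genes with a promoter (29.4%): Per1, Cry1, Tef, Ciart and Bhlhe41. Of the 11 clock genes called lower in at least 1 cluster, 9 have a promoter in the table, and 4 of these held it. Those 4 are shown because they carry the motif and were called lower in NZO. The capitals mark CACGTG, each stretch has 120 bases on the gene's strand, and an accessible region of the deposited data lies at each promoter:
Ciart, chr3:95882229-95882348 (minus strand): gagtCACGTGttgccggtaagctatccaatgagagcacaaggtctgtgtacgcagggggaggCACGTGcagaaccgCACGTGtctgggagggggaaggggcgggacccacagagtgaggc
Tef, chr15:81802489-81802608 (plus strand): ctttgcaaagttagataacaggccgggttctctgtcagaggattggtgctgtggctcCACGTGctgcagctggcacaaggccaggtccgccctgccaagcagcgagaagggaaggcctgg
Tef second start, chr15:81811219-81811338 (plus strand): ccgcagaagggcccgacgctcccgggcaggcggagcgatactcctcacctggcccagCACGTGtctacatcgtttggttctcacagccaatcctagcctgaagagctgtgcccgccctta
Per1, chr11:69098726-69098845 (plus strand): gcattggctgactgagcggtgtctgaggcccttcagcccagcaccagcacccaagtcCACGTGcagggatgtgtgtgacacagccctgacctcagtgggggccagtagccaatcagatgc
Bhlhe41, chr6:145865511-145865630 (minus strand): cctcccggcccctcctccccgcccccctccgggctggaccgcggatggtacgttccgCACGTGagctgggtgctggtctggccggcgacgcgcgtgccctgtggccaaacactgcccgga

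Ciart shows 3 copies of the motif within the stretch printed, and the other stretches show 1 each. A match of letters is a description, not a binding site.

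Several clock output genes were lower in NZO neurons. Of 19 listed, all were tested in Drd1+ neurons, 8 lower and 1 higher (median -0.25), where 8.74% of all genes were lower. In Drd2+ neurons 4 of 18 were lower and 1 higher (median -0.29), beside 7.72% of all genes lower. In astrocytes 4 of 18 were lower and none higher (median -0.24), beside 1.83%, and in oligodendrocytes 3 of 15 (median -0.29), beside 3.18%. In macrophages none of 6 was called, where 1.37% of all genes were lower. Dbp, a transcription factor at the clock's output, had 39.5, 42.9, 36.3 and 36.1 CPM in NZO Drd2+ neurons against 45.1 to 80.0 with a median of 61.4 (-0.68 ± 0.09, adjusted p = 1.5e-07), with no overlap, and 41.4, 42.6, 34.8 and 32.2 against 38.4 to 71.6 (median 55.9) in Drd1+ neurons (-0.55 ± 0.09, adjusted p = 1.5e-05), with 2 of 4 below all others. Hlf, of the same family, had 65.1, 63.1, 49.3 and 57.8 CPM in NZO Drd1+ neurons against 58.0 to 120.2 with a median of 93.4 (-0.65 ± 0.08, adjusted p = 1.1e-07) and was lower in Drd2+ neurons as well (-0.73 ± 0.08, adjusted p = 1.9e-09). The repressor Nr1d1 (REV-ERB alpha) had 6.95, 7.55, 7.70 and 7.02 CPM against 7.52 to 23.4 (median 13.9) in Drd1+ neurons (-0.95 ± 0.17, adjusted p = 6.5e-05), and the E-box repressor Bhlhe40 had 5.15, 3.55, 2.28 and 4.95 against 4.26 to 13.1 with a median of 8.73 (-1.08 ± 0.23, adjusted p = 0.00037). For Hlf, Nr1d1 and Bhlhe40 in Drd1+ neurons 2, 2 and 2 of the 4 NZO mice lay below all others. Ciart, whose promoter is shown above, had 5.39, 5.13, 0 and 2.65 CPM in NZO astrocytes against 7.55 to 63.4 with a median of 25.9 (-2.67 ± 0.49, adjusted p = 6.4e-05), with no overlap, and 9.52, 4.89, 7.41 and 6.61 against 7.26 to 29.5 (median 15.6) in Drd1+ neurons (-1.15 ± 0.27, adjusted p = 0.0029), where the call was lost without batch 3 (adjusted p = 0.055).

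Npas2, a partner of BMAL1 that acts in place of CLOCK, was the member on the higher side (0.30 in Drd1+ and 0.26 in Drd2+ neurons). Cry2 (-0.28 and -0.32) and Tef (-0.25 and -0.33) were lower in both classes and Rora in Drd1+ neurons (-0.23). Arntl, Clock, Per1 and Per2 were not called in Drd1+ neurons, at -0.12, -0.03, -0.55 and -0.59. Among these, Cry2 in Drd2+ neurons was lost without batch 3 (adjusted p = 0.078), Tef in Drd1+ neurons without batch 3 or without the batch term (adjusted p from 0.052 to 0.14) and Rora without batch 3 or without the batch term (adjusted p from 0.056 to 0.085). In oligodendrocytes Per1 (-1.18), Tef (-0.42) and Bhlhe41 (-1.11) were lower; the first was lost without batch 4 (adjusted p = 0.088) and the second without batch 2, 3 or 4 or without the batch term (adjusted p from 0.057 to 0.23). In astrocytes Per2 (-0.95), Dbp (-0.67) and Hlf (-0.51) were lower, and were lost without batch 2 (adjusted p = 0.096), without batch 2, 3 or 4 (adjusted p from 0.074 to 0.11) and without batch 1, 2 or 4 or against the 4 classical strains (adjusted p from 0.06 to 0.17). Clock genes swing with the time of day, and the hour of dissection is not given in the sources used here. The 4 NZO mice came from 4 batches, each with 1 mouse of every other strain. A batch is a pool of frozen striata and does not give the hour at which a mouse was dissected. The part of the time of day was not tested. Members called lower ran over the alternatives from 5 to 11 in Drd1+ neurons and from 3 to 7 in Drd2+ neurons.

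Some genes that glucocorticoids regulate were lower in oligodendrocytes, where 5 of 13 tested were lower and none higher (median -0.94, against 0.014 over all genes), beside 3.18% of all genes lower. In Drd1+ neurons 1 of 11 tested was higher and 1 lower (18.2%, beside 19.7% of all genes called). In Drd2+ neurons 1 of 10 was lower (10%, beside 18.5%). In astrocytes 1 of 14 was higher and 1 lower (14.3%, beside 4.8%). In macrophages 2 of 5 were lower (40%, beside 5.05%). Klf9, a transcription factor and a direct glucocorticoid receptor target, was lower in 4 of the 5 clusters. It had 87.8, 122, 28.7 and 56.8 CPM in NZO oligodendrocytes against 61.4 to 229 with a median of 135 (-0.94 ± 0.18, adjusted p = 0.00044). In Drd2+ neurons Klf9 had 75.8, 63.2, 68.3 and 76.7 CPM against 92.2 to 161 with a median of 115 (-0.70 ± 0.08, adjusted p = 8.6e-09), with no overlap, and in Drd1+ neurons 73.6, 80.0, 53.0 and 66.5 against 76.3 to 151 with a median of 101 (-0.62 ± 0.10, adjusted p = 2e-05), with 3 of 4 below all others. The fold change in astrocytes was -0.65 and was lost without batch 3 or 4 (adjusted p from 0.074 to 0.099). The kinase Sgk1 had 113, 47.7, 52.1 and 46.4 CPM in NZO oligodendrocytes against 37.1 to 761 with a median of 153 (-1.61 ± 0.43, adjusted p = 0.02), and was lost without batch 2, 3 or 4 or against the 4 classical strains (adjusted p from 0.054 to 0.32). The metabolic switch Pdk4 (-1.95) was lost without batch 1, 2 or 4 or against the 4 classical strains (adjusted p from 0.065 to 0.22), the transcription factor Klf15 (-1.16) without batch 3 (adjusted p = 0.086), and Per1 as given with the clock genes. In astrocytes Pdk4 was on the higher side (0.66), and was lost without batch 1, 2 or 4 (adjusted p from 0.054 to 0.1). In macrophages the receptor co-chaperone Fkbp5 (-2.20) and the phagocytic receptor Mertk (-0.41) were lower, and were lost without batch 1, 2, 3 or 4 or without the low-count filter (adjusted p from 0.066 to 0.16) and without batch 3 or without the batch term (adjusted p from 0.06 to 0.13). In Drd1+ neurons Errfi1 was higher (0.57), lost without batch 1 (adjusted p = 0.16). The glucocorticoid receptor Nr3c1 itself was not called in any cluster, with fold changes from -0.21 to 0.07. Over the alternatives 2 to 6 members were called lower in oligodendrocytes.

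**Figure D4:**
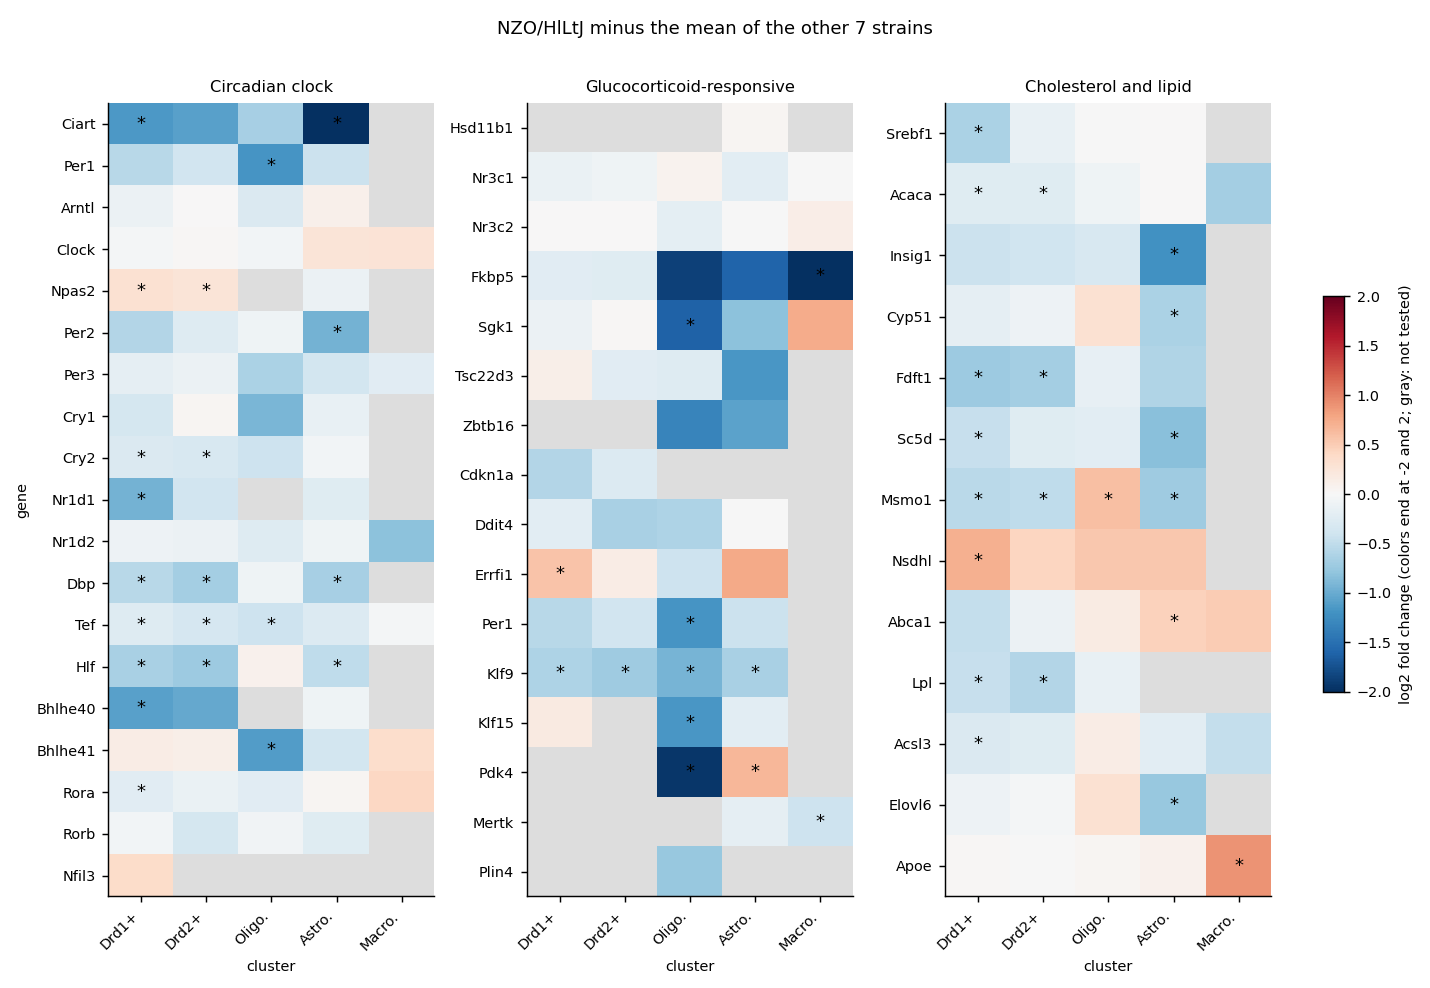
Log2 fold change between NZO/HlLtJ and the mean of the other 7 strains for the clock genes, the glucocorticoid-responsive genes and most of the cholesterol and lipid genes that were called in at least 1 cluster (rows), in 5 clusters (columns). Red is higher and blue lower in NZO/HlLtJ, colors end at -2 and 2, gray was not tested and a star marks an adjusted p under 0.05; Klf9 is blue with a star in 4 of the 5 clusters, and Dbp and Hlf are blue with a star in the neurons and astrocytes.

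In oligodendrocytes, the myelin-forming glia, 744 of 9082 genes differed in NZO (8.19%), 455 higher (5.01%) and 289 lower (3.18%), with 15 (0.165%) and 16 (0.176%) outside the range of all other libraries. By at least 1 on the log2 scale, 104 were higher (1.15%) and 99 lower (1.09%). Higher genes made up 61.2% of the calls, and 50.1% of the 655 calls against the 4 classical strains alone. Npsr1 (chr9:24097912-24317590), the receptor for neuropeptide S, had 849, 631, 474 and 659.5 CPM in NZO against 0 to 192 with a median of 1.66 (7.61 ± 0.13, adjusted p = 8.9e-72). PWK/PhJ was next, with a mean of 167 CPM. The complement factor C4b had 94.6, 116, 44.9 and 34.4 CPM in NZO against 1.38 to 31.8 with a median of 10.5 (2.74 ± 0.21, adjusted p = 7.5e-21), again with PWK/PhJ next at 26.0. Neither gene's groups overlapped. Astrocyte markers in these libraries summed to 535 to 971 CPM in the NZO mice and 344 to 1058 CPM (median 728) in the others. The part of astrocyte RNA in the C4b level was not tested. Colgalt2, which adds sugars to collagen, had 58.5, 60.2, 73.6 and 74.8 CPM against 0 to 21.7 with a median of 5.69 (3.53 ± 0.23, adjusted p = 1.9e-24), and Pxdn, which cross-links collagen IV, 115, 109.9, 89.8 and 89.7 against 0 to 74.2 with a median of 11.1 (2.81 ± 0.17, adjusted p = 3e-27). Pcolce2, an enhancer of procollagen processing, had 9.01, 4.15, 7.18 and 8.97 CPM in NZO against 32.5 to 229.5 with a median of 70.2 (-3.36 ± 0.32, adjusted p = 1.2e-10). All 4 NZO mice were above the others for Colgalt2 and Pxdn and below them for Pcolce2. The receptor kinase Kit had 9.01, 12.4, 10.8 and 16.5 CPM against 19.8 to 172 with a median of 35.6 (-1.92 ± 0.26, adjusted p = 4.2e-09), below all others. The others named on the lower side were Dach2 (-2.62), Lpcat2 (-2.25), Lipo3 (-1.59) and Garnl3 (-1.40, lost without batch 3, adjusted p = 0.054), and on the higher side Gm10701 (2.83). Poteg, an ankyrin-repeat gene, had 154 counts in the NZO libraries and 5 in all the others, 60.8, 43.6, 118.5 and 59.8 CPM against at most 2.36. It was not called with DESeq2 (adjusted p = 0.25).

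Of 36 genes of myelin and the oligodendrocyte lineage, all tested, 8 were higher and 2 lower in NZO (median 0.07), beside 5.01% and 3.18% of all genes. Over the alternatives 3 to 8 were higher and 2 to 6 lower. The myelin genes Mbp, Mag and Mog were not called, at 0.01, -0.08 and 0.00. Qdpr, which regenerates tetrahydrobiopterin, had 554, 434, 451 and 428 CPM in NZO against 153 to 487 with a median of 295 (0.69 ± 0.09, adjusted p = 4.8e-09), and the connexin Gjc3 853, 719.8, 794 and 663 against 367 to 796 with a median of 544 (0.49 ± 0.07, adjusted p = 1.1e-07). Mobp, a myelin protein of compact membrane, was lower, with 1445, 1371, 1327 and 1496 against 1139 to 2866 with a median of 1850.1 (-0.40 ± 0.07, adjusted p = 1.4e-05), as was carbonic anhydrase Car2 (-0.31). The NZO mice overlapped the others for all of these, with 1 of 4 above all others for Qdpr, 1 of 4 for Gjc3 and 0 of 4 below for Mobp. Of the transcription factors of the lineage, Myrf (0.20), St18 (0.04) and Nkx6-2 (-0.46) were not called. Olig2 (1.07), Olig1 (0.61) and Sox10 (0.32) were higher, and were lost without batch 2 (adjusted p = 0.068), without batch 3 or without the batch term (adjusted p from 0.057 to 0.058) and without batch 2, without the batch term or against the 4 classical strains (adjusted p from 0.33 to 0.54). The iron carrier Trf (0.40) was lost without the batch term (adjusted p = 0.16), Opalin (0.36) without batch 3 or 4 or without the batch term (adjusted p from 0.2 to 0.51) and the tight junction gene Cldn11 (0.22) without batch 1, 3 or 4, without the low-count filter, without the batch term, against the 4 classical strains, without NOD/ShiLtJ or with DESeq2 (adjusted p from 0.053 to 0.59). Precursor markers in the cluster summed to 53.9 to 118 CPM in the NZO mice and 52.0 to 144 CPM (median 90.8) in the others. The part of precursor cells in these differences was not tested.

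In astrocytes, which clear transmitters and supply neurons, 394 of 8207 genes differed (4.8%), 244 higher (2.97%) and 150 lower (1.83%), with 9 (0.11%) and 5 (0.0609%) outside the others' range. By at least 1 on the log2 scale, 77 were higher (0.938%) and 35 lower (0.426%). Without batch 1 the count was 260, and without batch 2, 202. Higher genes were 61.9% of the calls, and 48.0% of 298 against the 4 classical strains. A subunit of the glycine receptor was lower and an inhibitor of complement higher. The glycine receptor subunit Glrb had 37.7, 38.5, 30.5 and 39.8 CPM against 55.3 to 225 with a median of 127 (-1.75 ± 0.20, adjusted p = 4.9e-11). All 4 NZO mice were below the range of the others. Neuron markers in the cluster summed to 1654 to 1929 CPM in the NZO mice and 1219 to 2179 CPM (median 1726) in the others. The part of neuronal RNA in the Glrb level was not tested. Csmd1, a membrane inhibitor of complement, had 2128, 2152, 2495 and 2235 CPM in NZO against 203 to 1694 with a median of 559.9 (1.84 ± 0.16, adjusted p = 4.5e-08), with PWK/PhJ next at a mean of 1458. Klri1, a lectin-like receptor gene of the natural killer cell cluster, had 88.9, 89.8, 65.3 and 47.7 CPM against 0 to 21.8 with a median of 0 (5.81 ± 0.39, adjusted p = 2.4e-21), with WSB/EiJ at 18.5. Markers of T or B cells summed to at most 2.65 CPM in the NZO libraries. That list holds no natural killer cell marker, so RNA of those cells was not tested. Pygl, a glycogen phosphorylase, had 37.7, 41.0, 52.3 and 39.8 CPM against 0 to 31.1 with a median of 15.2 (1.42 ± 0.28, adjusted p = 0.00018), and Tprkb, of the tRNA-modifying KEOPS complex, 401, 482, 396 and 345 against 47.3 to 330.1 with a median of 212 (1.12 ± 0.10, adjusted p = 1e-14). Neither overlapped the others. Col23a1 (2.43) and Narf (1.36) were the other named genes on the higher side. On the lower side, beside Ciart and Glrb, were the actin oxidase Mical2 (-0.94) and B230206L02Rik (-1.70, lost without batch 4, adjusted p = 0.11).

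Genes of the reactive state, in which astrocytes respond to injury, were on the higher side among the few that could be tested. Of 18 listed, 6 were tested, and 3 were higher and none lower (median 1.03), beside 2.97% and 1.83% of all genes. Gfap, the intermediate filament of reactive astrocytes, had 191, 249, 78.4 and 459 CPM in NZO against 10.6 to 276 with a median of 92.1 (1.22 ± 0.20, adjusted p = 0.00022). Only 1 of the 4 NZO mice, that of batch 4, was above all others, and the batch 3 mouse was below the others' median. C4b had 178, 144, 165 and 188 CPM against 22.6 to 214 with a median of 105 (0.88 ± 0.15, adjusted p = 9.6e-06), within the upper part of the range. Vim had 43.1, 77.0, 43.5 and 212 against 5.71 to 92.1 with a median of 34.5 (1.38 ± 0.21, adjusted p = 1.7e-06), and was lost without batch 4 (adjusted p = 0.063). Gfap and Vim are also made by ependymal cells, whose markers summed in the astrocyte cluster to 10.3 to 26.1 CPM in the NZO mice and 0 to 30.9 CPM (median 14.01) in the others. The part of ependymal cells, or of where the tissue was cut, in these levels was not tested. Of 30 astrocyte genes, all tested, 3 were higher and 1 lower (median 0.05), beside 2.97% and 1.83% of all genes. The transcription factor Sox9 had 183, 228, 309 and 194 CPM in NZO against 90.6 to 266 with a median of 141 (0.65 ± 0.12, adjusted p = 6.9e-05), with 1 of 4 above all others. Bmpr1b (0.33) and the amino acid exchanger Slc7a10 (-0.40) were lost without batch 2, 3 or 4, without the batch term or against the 4 classical strains (adjusted p from 0.052 to 0.24) and without batch 1, 2 or 4, without the batch term, against the 4 classical strains, without NOD/ShiLtJ or with DESeq2 (adjusted p from 0.052 to 0.51).

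The macrophage cluster, in which microglia markers dominate, had the smallest libraries. Of 3858 genes tested 195 differed (5.05%), 142 higher (3.68%) and 53 lower (1.37%), with 6 (0.156%) and 1 (0.0259%) outside the others' range. By at least 1 on the log2 scale, 73 were higher (1.89%) and 23 lower (0.596%). Tmcc3 (chr10:94311682-94590954), a coiled-coil protein of the endoplasmic reticulum, had 3534, 3430.5, 4165 and 3816 CPM in NZO against 1015 to 2853 with a median of 1756 (1.06 ± 0.09, adjusted p = 9e-18). Slfn9, of the interferon-linked Schlafen family, had 145, 115, 154 and 194 against 0 to 78.2 with a median of 11.9 (3.49 ± 0.44, adjusted p = 6.3e-10). Kcnc2, a potassium channel of fast-firing neurons, had 171, 148, 190.1 and 124 CPM against 0 to 47.4 with a median of 0 (4.85 ± 0.52, adjusted p = 1.3e-12). Neuron markers in the cluster summed to 1498 to 1829 CPM in the NZO mice and 1375 to 2136 CPM (median 1684) in the others. The part of neuronal RNA in the Kcnc2 level was not tested. For these 3 genes every NZO mouse was above all others. Npnt, an integrin ligand of the extracellular matrix, had 1 count in the 4 NZO libraries and 385 in the 28 others, or 13.1, 0, 0 and 0 CPM against 20.5 to 324 with a median of 107 (adjusted p = 6.5e-09). A830008E24Rik (2.20) and BC035044 (1.53) were the other named genes on the higher side. Of 22 homeostatic genes of microglia, all tested, 1 was higher and none lower (median 0.05), beside 3.68% and 1.37% of all genes. P2ry12 was at 0.20, Cx3cr1 at 0.01 and Csf1r at -0.06, and the 1 call, the integrin Itgam (0.51), was lost without batch 2 or without the low-count filter (adjusted p from 0.089 to 0.18). Of the 27 genes of activated microglia 12 were tested, 2 higher and 1 lower (median 0.28), beside 3.68% and 1.37% of all genes. Over the alternatives the median ran from -0.11 to 0.36. The lipid carrier Apoe had 3968, 4284, 4618 and 2848 CPM in NZO against 1346 to 3450.1 with a median of 2070.2 (0.90 ± 0.15, adjusted p = 0.00025), with 3 of 4 above all others. The chemokine Ccl6 (1.93), tested only because of the NZO libraries, was lost without batch 3 (adjusted p = 0.16) and the tetraspanin Cd9 (-0.64) without batch 1, 2, 3 or 4, without the low-count filter, without the batch term, without NOD/ShiLtJ or with DESeq2 (adjusted p from 0.062 to 0.66).

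Macrophages of the brain's borders share the cluster with microglia. Their markers varied widely among the NZO mice: Mrc1 had 342, 345, 145 and 0 CPM in batches 1 to 4 against 0 to 237 (median 28.8) in the others, and F13a1 184, 328, 127 and 13.8 against 0 to 213 (median 17.95). The 5 border markers summed to 13.8 to 739 CPM in the NZO mice and 0 to 474 CPM (median 66.2) in the others. None of the 3 tested genes of the wider border list was called (median 1.84, against 0.017 over all genes), where 5.05% of all genes were called. Border macrophages also express Apoe; their part in its difference was not tested. The Apoe level was highest in the batch 3 mouse and lowest in the batch 4 mouse, which was the lowest for Mrc1. The 1 endothelial marker tested was called higher, and the endothelial markers in the cluster summed to 181 to 353 CPM in the NZO mice and 49.1 to 578 CPM (median 91.2) in the others. Of the genes of interferon and antigen presentation, 2 of 12 were called in Drd1+ neurons (16.7%, beside 19.7% of all genes) and 2 of 8 in astrocytes (25%, beside 4.8%). None was called of 10 tested in Drd2+ neurons (beside 18.5%), 7 in oligodendrocytes (beside 8.19%) or 7 in macrophages (beside 5.05%). In Drd1+ neurons 1 was higher (Irf8, 0.86, lost without batch 2, adjusted p = 0.13) and 1 lower (Nlrc5, -2.07, lost without batch 2 or 4, adjusted p from 0.054 to 0.076). In astrocytes 1 was higher, Ifi27 (1.01, lost without batch 1 or 4, adjusted p from 0.051 to 0.19), and 1 lower, the class I antigen gene H2-K1, with 5.39, 7.70, 17.4 and 7.95 CPM in NZO against 2.82 to 84.5 with a median of 28.7 (-1.73 ± 0.39, adjusted p = 0.0019). The strains carry different alleles of H2 genes.

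**Figure D5:**
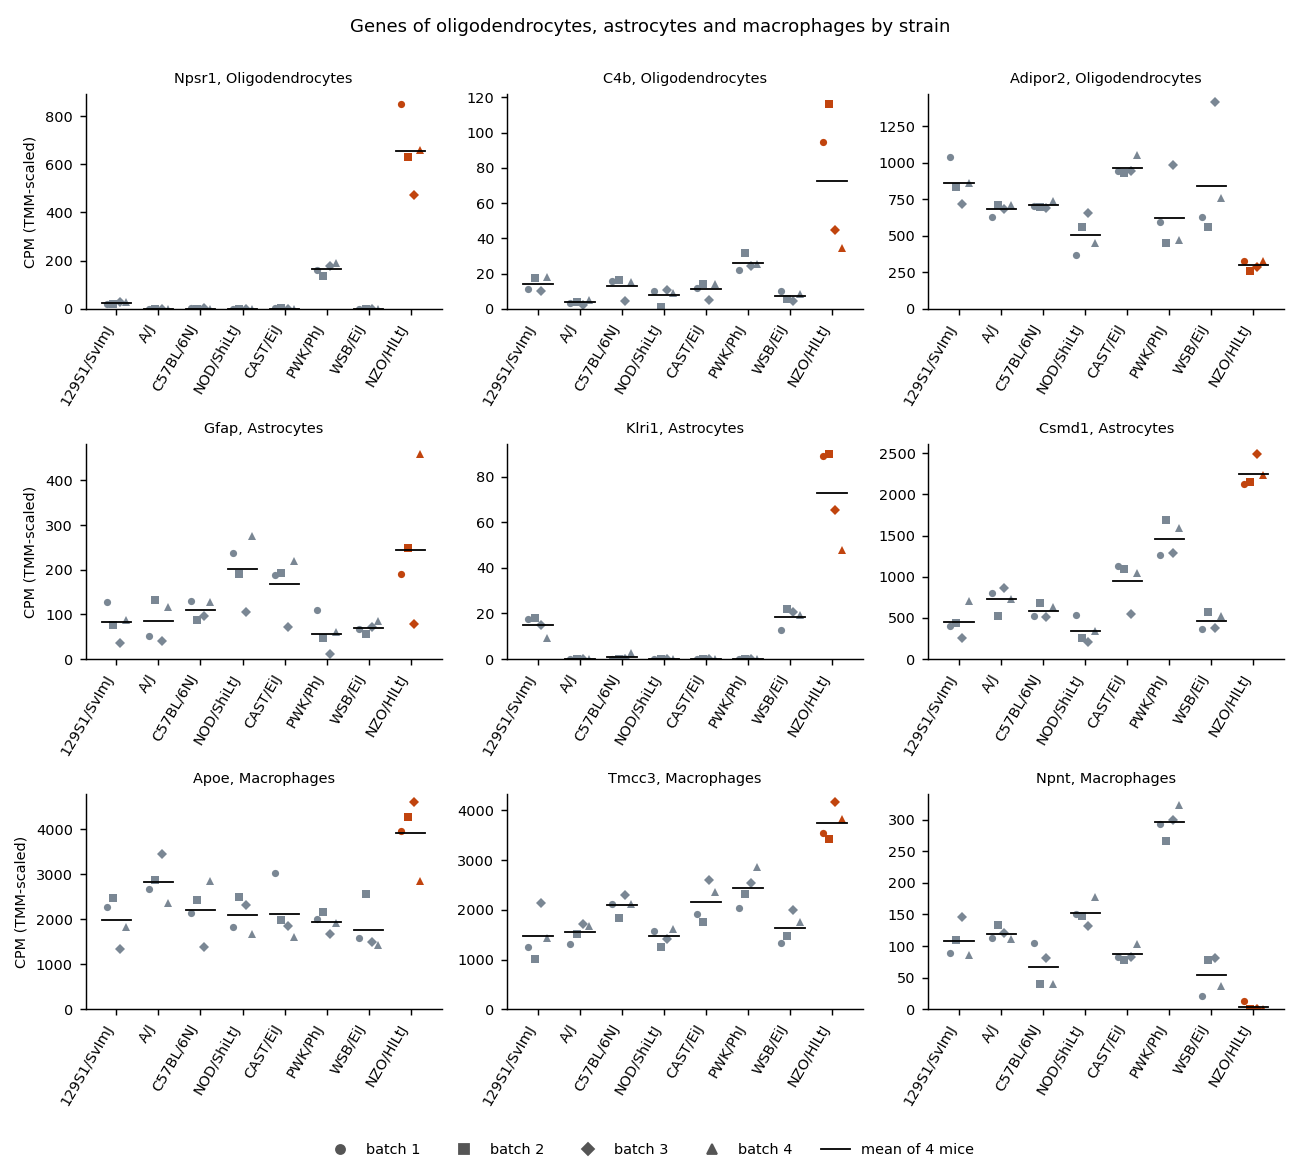
Levels of 9 genes by strain in oligodendrocytes (upper row), astrocytes (middle row) and macrophages (lower row), in CPM on linear axes from 0. Each point is 1 mouse with its batch marker, 4 per strain, and each line a mean; the NZO/HlLtJ points are apart from all others for Npsr1, C4b, Adipor2, Klri1, Csmd1, Tmcc3 and Npnt and overlap the others for Gfap and Apoe.

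The makeup of the tissue was compared as the share of each of 18 clusters among a mouse's annotated nuclei (tested as log2 share, with 0.5 nuclei added), and no cluster passed the adjusted test (0 of 18 at an adjusted p under 0.05, 3 at an unadjusted p under 0.05, two-sided exact permutation within batches, smallest possible p 0.000244). Drd1+ neurons were 31.7%, 22.3%, 30.9% and 23.7% of the nuclei of the NZO mice and 19.8% to 38.3% (median 28.2%) in the others (adjusted p = 0.858 in the exact test). Ependymal cells, which line the ventricles, were 2.20%, 2.53%, 0.939% and 0.404% in NZO against 0% to 1.81% (median 0.392%) (exact p = 0.00513, adjusted p = 0.0923). Without batch 4 this was the 1 call, at an adjusted p of 0.0352 in the exact test. Only 2 of the 4 NZO mice were above all others. Nxph1+ interneurons were 3.71%, 10.7%, 2.07% and 1.89% against 1.10% to 4.66% (median 1.82%) (exact p = 0.0208, adjusted p = 0.187), with the batch 2 mouse far above the rest. Slc17a7+ neurons were 0%, 0.442%, 0.376% and 2.63% against 0.0953% to 5% with a median of 1.26% (exact p = 0.0327, adjusted p = 0.196), below the mean of the others in all 4 batches. Macrophages were 3.48%, 2.97%, 5.07% and 3.64% against 2.54% to 7.15% (median 4.97%) (exact p = 0.0601, adjusted p = 0.221), the NZO mice within the range of the others. The cluster named Unknown held 1.22%, 3.10%, 2.16% and 4.45% against 0.22% to 3.67% (median 1.30%) (exact p = 0.0615, adjusted p = 0.221).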

How the data were processed

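RNA counts came from 4 single-nucleus libraries of mouse striatum, 1 per batch. The deposited raw counts per gene and barcode (32285 genes, 89339 barcodes) were used as they stand. The submitters' processing notes name bcl2fastq 2.20.0.422, Cell Ranger ARC 2.0.0 and the builds mm10 and GRCm38. All strains were counted on 1 set of genes, the counting strand is not given in the sources used here, and how strain alleles affect alignment was not tested. The authors' deposited cell table gave the batch, the strain (Demuxlet genotype), the filters (detected genes, mitochondrial share, DoubletFinder, removal on biological grounds) and the cluster names, and left 55672 annotated nuclei. The chromatin matrix was not analysed here, and the values of some genes counted in the lists are not reported here.

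Counts were summed per mouse and cluster (160 libraries). Each cluster was fitted with edgeR 4.0.16 (quasi-likelihood F test, robust, TMM scaling, genes passing filterByExpr) in R 4.3.3, with strain and batch as terms. The contrast was NZO against the unweighted mean of the 7 other strains, and p-values were adjusted by Benjamini and Hochberg over all genes tested, with 0.05 as the threshold. The design text gives each batch as 1 pool with 1 mouse of every strain, which is why the batch stands as a block. Neuron classes were compared with an interaction term and the mouse as block. Shares of nuclei and depth were tested by exact permutation within batches (4096 assignments). Where nothing says otherwise, p-values measure the spread between 4 mice per strain. The median count per nucleus was 4842, 4931, 3232 and 4593 in batches 1 to 4. On simulated data with 200 genes changed 2-fold in NZO, 93% and 84.5% were recovered in the Drd1+ and Drd2+ classes. In oligodendrocytes, astrocytes and macrophages 78.5%, 70% and 68.5% were recovered. False calls were 7.92%, 7.14%, 5.99%, 2.78% and 3.52% of the calls in the same order of clusters. The simulation held no batch effect and no difference among the 7 other strains, so these rates need not hold for the real data.

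Named genes were, per cluster, the called genes of at least 10 CPM with all NZO libraries outside the others' range and the largest fold changes, the genes with 1 sign in all 5 clusters and the largest minimum fold change, the 5 interaction calls with the largest F, and the members of 15 lists (384 genes, 3 not matched). The members and lists were chosen with earlier results of these data known. Gene positions and promoters came from RefSeq (GRCm38.p6), in which 26656 of the 32285 genes were matched by symbol. Alternatives were other scaling (RLE), no filter on low counts, DESeq2 1.42.0, no batch term, a fold threshold, the 4 classical strains as reference, at least 30 nuclei per library and each batch left out. Leaving out the A/J mouse of batch 2 or NOD/ShiLtJ was added after seeing the data. That A/J mouse gave 1198 Drd1+ nuclei, the most of any mouse.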

Additional observations from a re-analysis of the deposited data

Results flagged for a closer look

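In 100 sets of 4 NZO values, 8 had 1 mouse far from the other 3 (Dixon's test at its 95% level), where chance flags about 1 in 20. The batch 4 mouse was low for Elovl2 in Drd2+ neurons (17.3 CPM) and for B230206L02Rik in astrocytes (2.65 CPM), and high for Snhg11 in Drd1+ neurons (826 CPM). It also had the highest share of Slc17a7+ neurons, 2.63% of its nuclei. The batch 1 mouse held the 1 count of Npnt in macrophages (13.1 CPM). The batch 2 mouse was high in the share of the cluster named Unknown_2 (0.19%). The batch 3 mouse had a low median count per macrophage nucleus (1128.5) and a low mitochondrial share of oligodendrocyte counts (2.46%).

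For 5 genes the NZO difference was itself tested between neuron classes with an interaction term, Drd2+ minus Drd1+ on the log2 scale. It was 1.34 for Rtl4, -1.33 for Onecut2, 0.71 for Fstl5, -0.33 for Snhg11 and 0.32 for Unc13c. Of these, Rtl4, Snhg11 and Unc13c were not called with the batch in place of the mouse as block.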

How the results depend on the processing

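Among the genes of the naming rule and the list members called, no called value changed its direction under an alternative that was run. The direction of the other calls was not compared between alternatives. Calls that also differed by 1 or more on the log2 scale numbered 399 and 371 in the Drd1+ and Drd2+ classes, 203 in oligodendrocytes, 112 in astrocytes and 96 in macrophages. Leaving out each batch in turn gave 1751 to 2427 calls in the Drd1+ class, 1560 to 2200 in the Drd2+ class, 523 to 568 in oligodendrocytes, 202 to 295 in astrocytes, 136 to 148 in macrophages and 53 to 83 in the interaction, and against single strains 1069 to 1619 for 129S1/SvImJ, 1220 to 1511 for A/J, 1145 to 1698 for C57BL/6NJ, 3014 to 3436 for CAST/EiJ, 1302 to 1818 for NOD/ShiLtJ, 3028 to 3997 for PWK/PhJ and 1476 to 1885 for WSB/EiJ. The number of called cluster shares was 0 to 1.

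Without the batch as replicate block, the calls were 1951, 1832, 568, 312 and 167 in the 5 clusters in the same order and 0 for shares and depth. Without the mouse as block the interaction had 8 calls. With RLE scaling, no filter, DESeq2, the 4 classical strains, 30 nuclei, or without the A/J mouse of batch 2 or NOD/ShiLtJ, the Drd1+ count was 2632, 2863, 2330, 2168, 2650, 2623 and 2630. For single genes, list members, list medians, shares of nuclei and depth, 276 calls were lost and 8 gained, and 20 list medians moved by more than their SD over batches. The other 3578 values kept their side of the threshold or, where no test applies, moved by less than that SD.

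Depth limits the glia: the smallest NZO macrophage library held 60519 counts, and genes of a few counts there cannot be told from 0.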

Other observations

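The sterol regulatory letters TCACNCCAC, searched on both strands, were found in 388 of 27025 genes with a RefSeq promoter (1.44%). Among the cholesterol and lipid genes with a promoter, 2 of 30 held them, Hmgcs1 and Acsl1, neither of them called lower in any cluster.

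Y-linked transcripts were present in 18 of the 32 mice, 5 each in batches 1 and 2 and 4 each in batches 3 and 4, where the design text gives 4 of each sex per batch.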
